A study of Mus musculus with 6 samples.

Results

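The distal enzymes of leucine and valine breakdown, and the enzymes that convert propionyl-CoA to succinyl-CoA, were followed at the transcript level in the heart ventricle of WD-fed mice with and without Tributyrin. The 10 genes were taken from a list of pathway members by symbol and Ensembl identifier, and not by a threshold on their values. They were chosen with earlier results of these data known. They are *Ivd*, *Mccc1*, *Mccc2* and *Auh* of the leucine branch, *Hibch*, *Hibadh* and *Aldh6a1* of the valine branch, and *Pcca*, *Pccb* and *Mut* of the propionate branch. All 10 were among the 54232 genes in the count files and among the 14133 that passed the filter on low counts. The WD + Tributyrin group (n = 3) and the WD + Vehicle group (n = 3) were WT C57BL/6J mice that had received a western diet for 15 weeks. Tributyrin, a triglyceride of glycerol and butyrate, was then needle-fed at 5 g/kg body weight for 3 weeks, and the control treatment is called PBS in the labels. The study used male and female mice, and neither the sex nor the age of each of the 6 mice is given in the sources used here. Both groups ate the western diet, so no chow-fed heart stands behind any value below.

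The branched-chain amino acids leucine, valine and isoleucine are first transaminated and then oxidatively decarboxylated by the branched-chain keto acid dehydrogenase, after which each follows its own route inside mitochondria. Leucine carbon ends as acetyl-CoA and acetoacetate, valine carbon ends as propionyl-CoA, and propionyl-CoA is carboxylated and rearranged to succinyl-CoA, which enters the citric acid cycle. Both carboxylases of these routes carry biotin and the mutase carries a cobalamin cofactor, and inherited loss of the carboxylases or the mutase causes organic acidemias that can involve the heart muscle.

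The 6 libraries held between 20369746 and 32734485 counts, of which 23.6% to 28.8% lay on genes of the mitochondrial genome. The 10 transcripts together took between 0.163% and 0.178% of each library, and the lowest of their counts was 1455, for *Mccc2* in vehicle replicate 3. Counting error alone therefore gave a relative SD of at most 0.985% to 2.62% depending on the gene. The CV between mice, which includes counting error, was larger than that in both groups for every gene. It was closest for *Mccc2* in the Tributyrin mice, at 2.75% against at most 2.62%. Ventricular cardiomyocyte markers summed to 1423540 to 1461830 normalized counts in vehicle and 1377960 to 1491770 in Tributyrin mice. The summed markers of fibroblasts, endothelial cells, macrophages, smooth muscle and erythroid cells also overlapped between the groups. Sums rest mostly on their most abundant genes. Among the single markers the groups did not overlap for *Tnni3*, *Pln* and *Myh11*, higher with Tributyrin, and *Lum*, lower, against 8.91% of all genes without overlap. Atrial cardiomyocyte markers summed to 4788, 4540 and 1414 normalized counts in the vehicle mice against 815, 1687 and 1219 in the Tributyrin mice. These sums overlapped, and 1046 of the 1414 in vehicle replicate 3 came from *Nppa*. For *Myl7*, *Myl4*, *Sln* and *Mybphl*, vehicle replicates 1 and 2 were the highest of the 6 mice and vehicle replicate 3 the lowest. Of the 5 tested markers 0 were higher with Tributyrin (49.6% of all genes), and the part of these markers in the results was not tested. The adipocyte markers summed to at most 75.8 normalized counts in any library, and 0 of 5 passed the filter on low counts. In RNA from whole tissue, fewer cells of a type and less RNA per cell cannot be told apart. The study counts the 3 samples of a group as 3 mice, and no pair of libraries was a duplicate (chi-square per degree of freedom at least 7.40).

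In Tributyrin treated hearts, 0 of the 10 transcripts passed a test of the difference from vehicle hearts, in the leucine, the valine or the propionate branch. By edgeR's quasi-likelihood test, 0 of the 10 passed an FDR of 10%, against 0% of the 14133 genes tested, and 0 of the 10 had an unadjusted p under 0.05, against 4.25% of all genes. DESeq2 called 0 of the 10 at an FDR of 10% against a background of 0.0835%, and limma-voom called 0 of the 10 against a background of 0%. The ranges of vehicle and Tributyrin mice overlapped in 10 of the 10 transcripts, whereas 8.91% of all genes had ranges without overlap. The fold change was above 1 for 9 of the 10 genes when libraries were scaled by TMM (49.6% of all genes), for 8 of the 10 when they were scaled by library size with the mitochondrial genome genes left out, and for 2 of the 10 when they were scaled by library size alone. The median log2 fold change of the 10 genes, Tributyrin over vehicle, was 0.06, and that of all genes was -0.001. Leaving out 1 library moved the median of the 10 genes to between 0.03, without vehicle replicate 2, and 0.09, without vehicle replicate 1. Under library size alone the median of all genes moved to -0.07, and 9 of the 10 genes again lay above it. The largest estimate was that of *Mccc2*, with a mean difference of 9.97%, and the 95% intervals together ran from -11.8% for *Pcca* to 26.0% for *Mccc2*. Each interval holds for 1 transcript under TMM and leaves out the choice of scaling. These intervals do not show that the groups were equal.

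**Figure D1:**
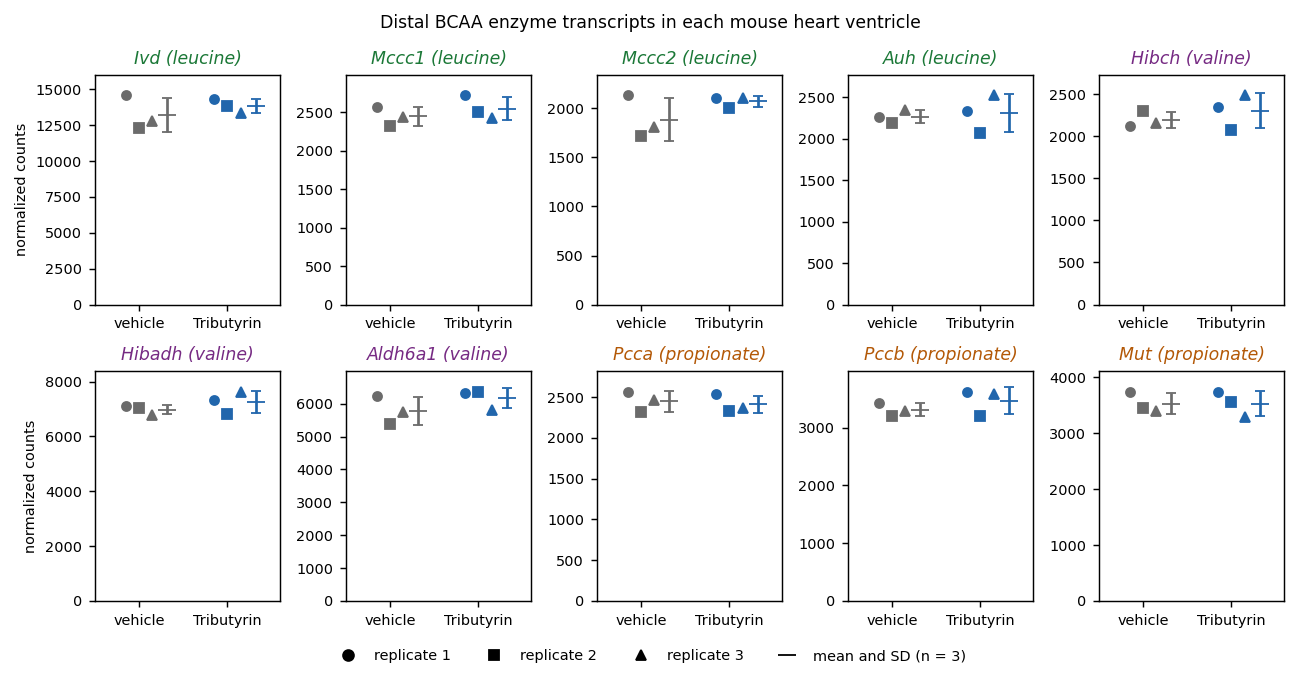
Normalized counts (vertical axis, from 0) of the 10 transcripts in the 3 vehicle mice (grey) and the 3 Tributyrin mice (blue), with symbols for the replicate numbers and bars for the mean and SD (n = 3). The ranges of the groups overlap in every panel.

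The leucine branch held 4 genes, all 4 with a fold change above 1 under TMM and 1 of 4 under library size alone. Under either scaling all 4 lay above the median of all genes. The median log2 fold change of the branch was 0.06 under TMM. That median was 0.12 without vehicle replicate 1, 0.02 without vehicle replicate 2, 0.04 without Tributyrin replicate 1 and 0.10 without Tributyrin replicate 3. *Ivd* (ENSMUSG00000027332, chr2:118861954-118882909 on the plus strand of GRCm38) encodes isovaleryl-CoA dehydrogenase, which takes the first step after the keto acid dehydrogenase in leucine breakdown. Its normalized counts, which are counts divided by a size factor of the library, were 14574, 12277 and 12801 in the vehicle mice and 14343, 13815 and 13333 in the Tributyrin mice. The highest and the lowest values both came from vehicle mice, and all Tributyrin values lay between them. The means were 13217 ± 1203 (SD, n = 3) and 13831 ± 505 (SD, n = 3), with a log2 fold change of 0.07 (SE 0.08, 95% interval -0.11 to 0.24; edgeR adjusted p = 0.999).

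*Mccc1* and *Mccc2* encode the subunits of methylcrotonyl-CoA carboxylase, the biotin enzyme that follows *Ivd*: the *Mccc1* product carries the biotin and the *Mccc2* product holds the carboxyltransferase. Their promoter stretches are shown to set the partner subunits side by side, and they were read from RefSeq promoters (GRCm38.p6) from 200 to 21 bases before the annotated start, 5′ to 3′ on the strand of the gene, with capitals marking matches to the CCAAT box, the GC box or the NRF1 motif on either strand. *Mccc1* lies on the minus strand, and the stretch is chr3:36000699-36000878. *Mccc2* also lies on the minus strand, and the stretch is chr13:100015660-100015839.
Mccc1: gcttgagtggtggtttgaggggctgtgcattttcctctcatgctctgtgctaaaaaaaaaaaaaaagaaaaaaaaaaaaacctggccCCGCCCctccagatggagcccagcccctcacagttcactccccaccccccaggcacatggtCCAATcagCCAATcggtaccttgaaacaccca
Mccc2: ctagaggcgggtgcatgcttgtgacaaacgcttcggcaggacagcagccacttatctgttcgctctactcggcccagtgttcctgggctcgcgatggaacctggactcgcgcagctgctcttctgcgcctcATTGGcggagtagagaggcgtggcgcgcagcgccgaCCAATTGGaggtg
The *Mccc1* stretch held 1 GC box and 2 CCAAT boxes, whereas the *Mccc2* stretch held 3 CCAAT boxes, of which the last pair overlapped on opposite strands in 1 run of capitals, and no GC box. A match is a description of the letters and not a binding site.

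*Mccc1* (ENSMUSG00000027709, chr3:35959312-36000678, minus strand) had 2568, 2325 and 2446 normalized counts in the vehicle mice and 2720, 2503 and 2425 in the Tributyrin mice. Tributyrin replicate 1 was the highest and vehicle replicate 2 the lowest, and the remaining mice were interleaved. The means were 2447 ± 121 (SD) and 2549 ± 153 (SD), a log2 fold change of 0.06 (SE 0.08, 95% interval -0.11 to 0.23). An antisense gene, *Mccc1os*, shares 198 exonic bases with *Mccc1* but had at most 2.34% as many counts.

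*Mccc2* (ENSMUSG00000021646, chr13:99948530-100015639, minus strand) had 2132, 1716 and 1808 normalized counts in the vehicle mice and 2102, 2007 and 2110 in the Tributyrin mice. The Tributyrin mice lay close to each other and above vehicle replicates 2 and 3, but vehicle replicate 1 was the highest of all 6. The means were 1885 ± 218 (SD) and 2073 ± 56.9 (SD), a log2 fold change of 0.14 (SE 0.09, 95% interval -0.06 to 0.33) with the lowest unadjusted p of the 10 genes (edgeR unadjusted p = 0.146, adjusted p = 0.999; two-sided exact permutation p = 0.4). Without vehicle replicate 1 the log2 fold change of *Mccc2* was 0.24, with an unadjusted edgeR p of 0.0185 and an adjusted p of 0.993. Over the 14 alternatives its adjusted p was at least 0.627. Leaving out that mouse removes the overlap by construction, since no other vehicle mouse lay above a Tributyrin mouse.

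*Auh* (ENSMUSG00000021460, chr13:52835119-52929681, minus strand) encodes methylglutaconyl-CoA hydratase, the step after the carboxylase, a protein also known to bind AU-rich RNA. Vehicle mice had 2267, 2187 and 2344 normalized counts and Tributyrin mice had 2330, 2074 and 2523. The Tributyrin mice enclosed the whole vehicle range, with replicate 2 the lowest and replicate 3 the highest of all 6. The log2 fold change was 0.03 (SE 0.08, 95% interval -0.16 to 0.21), between means of 2266 ± 78.5 (SD) and 2309 ± 225 (SD), and it became -0.04 without Tributyrin replicate 3.

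**Figure D2:**
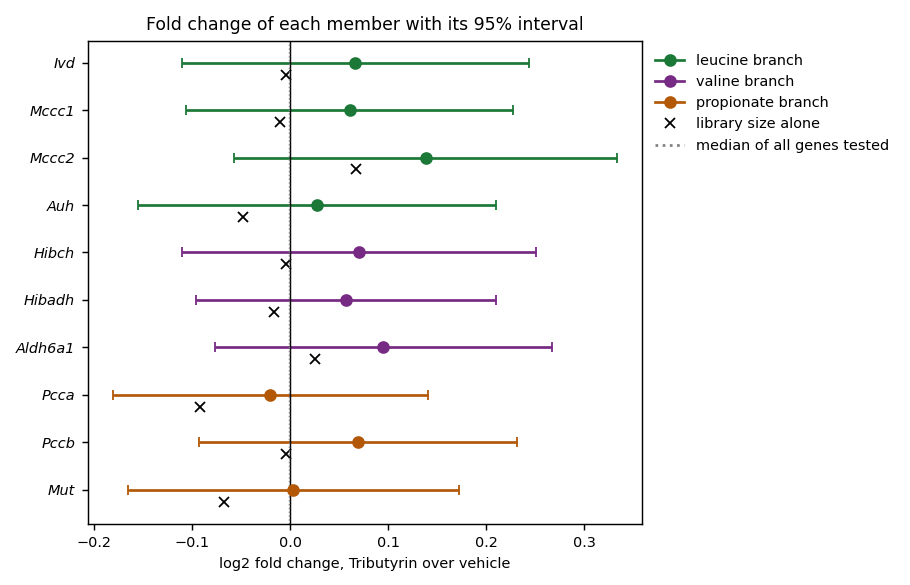
Log2 fold change, Tributyrin over vehicle (horizontal axis), of each of the 10 genes from edgeR with TMM scaling (circles, coloured by branch, with 95% intervals) and under library size alone (crosses). Every interval includes 0, and 9 of 10 circles but 2 of 10 crosses lie above 0. The median of all genes was -0.001 under TMM (dotted line) and -0.07 under library size alone. Under either scaling 9 of 10 genes lay above that median.

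The valine branch held 3 genes, 3 of 3 with a fold change above 1 under TMM and 1 of 3 under library size alone. Under either scaling 3 of 3 lay above the median of all genes. The median log2 fold change of the branch was 0.07 under TMM, which was 0.02 without Tributyrin replicate 3. *Hibch* (ENSMUSG00000041426, chr1:52844929-52920986, plus strand) encodes 3-hydroxyisobutyryl-CoA hydrolase, which releases the free acid from its CoA ester, a step particular to valine. Its normalized counts were 2127, 2305 and 2152 in the vehicle mice and 2353, 2076 and 2485 in the Tributyrin mice. Tributyrin replicates 1 and 3 were above every vehicle mouse, and Tributyrin replicate 2 was below them. The means were 2194 ± 96.3 (SD) and 2304 ± 209 (SD), a log2 fold change of 0.07 (SE 0.08, 95% interval -0.11 to 0.25).

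*Hibadh* (ENSMUSG00000029776, chr6:52546228-52640389, minus strand) encodes 3-hydroxyisobutyrate dehydrogenase, which oxidizes that acid to methylmalonate semialdehyde. It had 7094, 7032 and 6799 normalized counts in the vehicle mice, the tightest vehicle group of the 10 genes with a CV of 2.23%, and 7334, 6803 and 7626 in the Tributyrin mice. As for *Hibch*, Tributyrin replicates 1 and 3 were above every vehicle mouse, while replicate 2 was within the vehicle range. The log2 fold change was 0.06 (SE 0.07, 95% interval -0.10 to 0.21), between means of 6975 ± 155 (SD) and 7254 ± 417 (SD).

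*Aldh6a1* (ENSMUSG00000021238, chr12:84430717-84451004, minus strand) encodes methylmalonate semialdehyde dehydrogenase, which makes propionyl-CoA from the valine semialdehyde and also serves thymine breakdown. Normalized counts were 6229, 5387 and 5740 in the vehicle mice and 6340, 6362 and 5820 in the Tributyrin mice. Here Tributyrin replicates 1 and 2 were the highest of all 6, and vehicle replicate 1 came next, above Tributyrin replicate 3. The means were 5785 ± 423 (SD) and 6174 ± 307 (SD), a mean difference of 6.72% and a log2 fold change of 0.10 (SE 0.08, 95% interval -0.08 to 0.27). *Bbof1*, on the opposite strand, shares 1078 exonic bases with *Aldh6a1* and had at most 0.979% as many counts.

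The propionate branch held 3 genes, 2 of 3 with a fold change above 1 under TMM and 0 of 3 under library size alone. Under either scaling 2 of 3 lay above the median of all genes. The median log2 fold change of the branch was 0.003 under TMM. That median ran from -0.03 without Tributyrin replicate 1 to 0.05 without vehicle replicate 1, with 0.05 also without Tributyrin replicate 3 and -0.01 without vehicle replicate 2 or 3. *Pcca* and *Pccb* encode the subunits of propionyl-CoA carboxylase, with the biotin on the *Pcca* product. Their promoter stretches are shown as for *Mccc1* and *Mccc2*, from the same source, positions and marking. The *Pcca* stretch is chr14:122534128-122534307 on the plus strand and the *Pccb* stretch is chr9:101034905-101035084 on the minus strand.
Pcca: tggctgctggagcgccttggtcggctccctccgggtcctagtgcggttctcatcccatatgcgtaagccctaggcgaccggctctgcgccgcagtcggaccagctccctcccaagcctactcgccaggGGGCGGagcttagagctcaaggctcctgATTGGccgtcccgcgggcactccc
Pccb: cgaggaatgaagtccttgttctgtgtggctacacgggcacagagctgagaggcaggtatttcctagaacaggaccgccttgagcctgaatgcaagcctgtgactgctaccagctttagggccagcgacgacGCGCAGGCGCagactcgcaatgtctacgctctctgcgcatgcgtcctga
*Pcca* held 1 GC box and 1 CCAAT box, and *Pccb* held 1 NRF1 match, so the partner subunits had none of the searched motifs in common in these stretches.

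*Pcca* (ENSMUSG00000041650, chr14:122534324-122891100, plus strand) was the only one of the 10 genes with a fold change below 1 under TMM. Its normalized counts were 2564, 2315 and 2464 in the vehicle mice and 2533, 2333 and 2369 in the Tributyrin mice, and all Tributyrin values lay within the vehicle range. The means were 2447 ± 126 (SD) and 2412 ± 107 (SD), with a log2 fold change of -0.02 (SE 0.07, 95% interval -0.18 to 0.14) that became 0.02 without vehicle replicate 1 and 0.002 without Tributyrin replicate 2. *Ggact*, on the opposite strand, shares 241 exonic bases with *Pcca* and had 206 to 339 counts, at most 12.8% as many as *Pcca*. The library kit was stranded, but the strand setting of the counting is not given in the sources used here.

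*Pccb* (ENSMUSG00000032527, chr9:100982032-101034898, minus strand) had 3426, 3202 and 3285 normalized counts in the vehicle mice and 3617, 3203 and 3574 in the Tributyrin mice. Tributyrin replicates 1 and 3 were above all vehicle mice, and Tributyrin replicate 2 was level with the lowest of them, as in *Hibadh*. The log2 fold change was 0.07 (SE 0.07, 95% interval -0.09 to 0.23), between means of 3304 ± 113 (SD) and 3465 ± 228 (SD).

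*Mut* (ENSMUSG00000023921, chr17:40934685-40961988, plus strand) encodes methylmalonyl-CoA mutase, the cobalamin enzyme that forms succinyl-CoA. It had 3741, 3447 and 3392 normalized counts in the vehicle mice and 3740, 3558 and 3297 in the Tributyrin mice. Its means were the closest of the 10 genes, 3526 ± 188 (SD) and 3532 ± 223 (SD), and the log2 fold change of 0.00 (SE 0.08, 95% interval -0.17 to 0.17) turned negative in 7 of 14 alternatives. *Cenpq* overlaps it on the opposite strand by 95 exonic bases and had at most 4.54% as many counts.

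**Figure D3:**
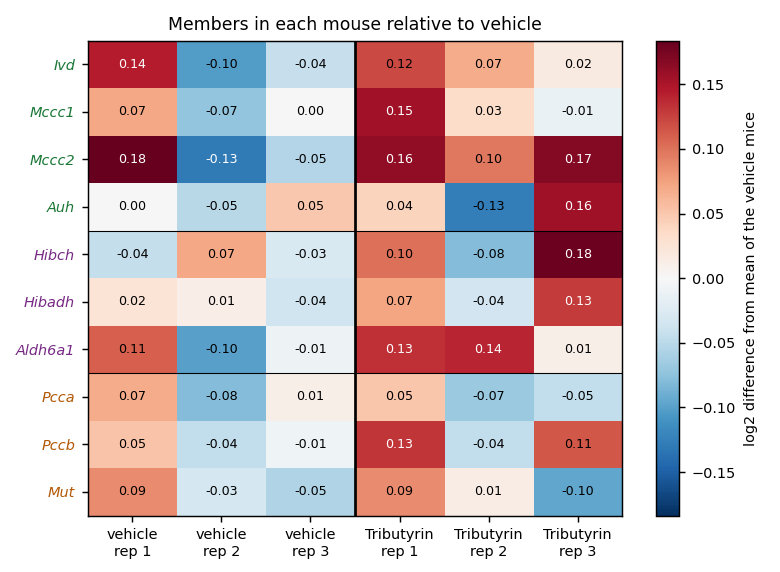
Log2 difference of each of the 10 genes (vertical axis, by branch) in each mouse (horizontal axis) from the mean of the 3 vehicle mice, on normalized counts, with red above and blue below that mean. Vehicle replicate 1 and Tributyrin replicate 1 are mostly red and vehicle replicate 2 mostly blue, so the spread within groups is as wide as the difference between them.

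The spread of the 10 genes within the groups was as wide as the difference between the groups. Averaged over the 10 genes, the log2 difference from the vehicle mean was 0.07, -0.05 and -0.02 in the vehicle mice and 0.11, -0.0002 and 0.06 in the Tributyrin mice. The mean of the Tributyrin mice was 0.06 ± 0.05 (SD, n = 3), no larger than the SD of 0.06 among the vehicle mice. Vehicle replicate 1 had 9 of 10 genes above the vehicle mean and Tributyrin replicate 1 had 10 of 10, whereas vehicle replicates 2 and 3 had 2 and 3 of 10. Tributyrin replicates 2 and 3 lay between, with 5 and 7 of 10. Vehicle replicate 1 was the highest library for 4 of the 10 genes and vehicle replicate 2 the lowest for 6. The share of counts on mitochondrial genome genes was 26.5% in vehicle replicate 1 and 23.6% and 24.1% in the other vehicle mice, and 27.7%, 25.9% and 28.8% in the Tributyrin mice, and its part in these values was not tested.

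By mean log2 difference, Tributyrin replicate 1 was the highest mouse and vehicle replicate 2 the lowest in the leucine and propionate branches. In the valine branch Tributyrin replicates 1 and 3 were the highest and vehicle replicate 3 the lowest. In the leucine branch the mean log2 difference was 0.10, -0.09 and -0.01 in the vehicle mice and 0.12, 0.02 and 0.08 in the Tributyrin mice, so the vehicle group alone spanned most of the range. In the valine branch it was 0.03, -0.01 and -0.02 in the vehicle mice and 0.10, 0.01 and 0.11 in the Tributyrin mice, and Tributyrin replicate 2 was the mouse that lay among the vehicle values. For the propionate branch it was 0.07, -0.05 and -0.02 in the vehicle mice and 0.09, -0.03 and -0.01 in the Tributyrin mice, with both groups spread alike around the vehicle mean. Whether the treatment difference differed between branches was not tested, since the genes of a branch share the same 6 mice. The CV between vehicle mice was 2.23% to 11.6% with a median of 5.05%, beside a median of 4.20% for 1853 genes at least as abundant. Between Tributyrin mice it was 2.75% to 9.74% with a median of 5.88%, beside 7.57% for the same 1853 genes. Those 1853 genes had a mean at or above the lowest group mean of the 10 members, with no upper limit.

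Within a library, the ratio of partner subunits needs no scaling between libraries. The count ratio of *Pcca* to *Pccb* was 0.748, 0.723 and 0.750 in the vehicle mice and 0.700, 0.728 and 0.663 in the Tributyrin mice. The ranges overlapped through Tributyrin replicate 2, which lay above the lowest vehicle mouse. The mean log2 ratio was -0.43 ± 0.03 (SD) in vehicle and -0.52 ± 0.07 (SD) in Tributyrin, a difference of -0.09 (two-sided exact permutation p = 0.2, Benjamini-Hochberg adjusted over the 2 ratios 0.3, where 3 mice against 3 allow no p below 0.1).

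The count ratio of *Mccc1* to *Mccc2* was 1.20, 1.36 and 1.35 in the vehicle mice and 1.29, 1.25 and 1.15 in the Tributyrin mice. Vehicle replicates 2 and 3 were above every Tributyrin mouse and vehicle replicate 1 was not. The mean log2 ratio was 0.38 ± 0.10 (SD) in vehicle and 0.30 ± 0.09 (SD) in Tributyrin, a difference of -0.08 (two-sided exact permutation p = 0.3, adjusted 0.3). Per kilobase of the principal transcript, the biotin subunit was below its partner for propionyl-CoA carboxylase, at ratios of 0.593 to 0.671, and near its partner for methylcrotonyl-CoA carboxylase, at 0.994 to 1.17. That contrast rested on the length chosen. Per kilobase of all annotated exons, the biotin subunits of both enzymes were below their partners in the vehicle mice. The mean levels were 470 for *Pcca* against 1192 for *Pccb*, and 223 for *Mccc1* against 673 for *Mccc2*.

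**Figure D4:**
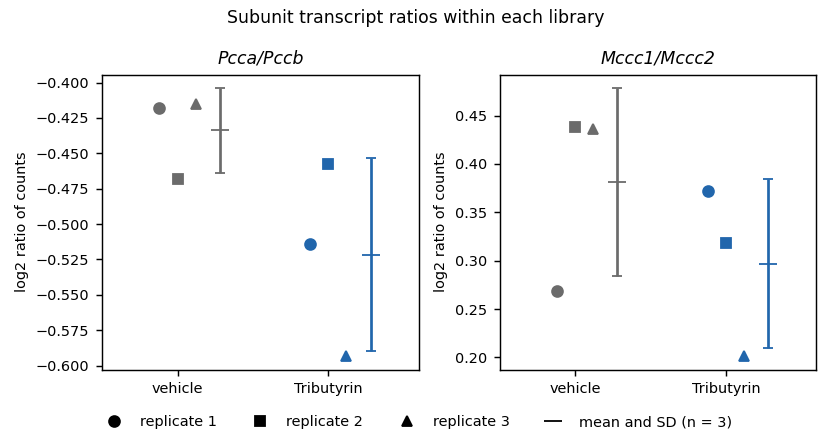
Log2 ratio of counts (vertical axes, each with its own range and not starting at 0) of *Pcca* to *Pccb* and of *Mccc1* to *Mccc2* within each of the 6 libraries, with symbols for the replicate numbers and bars for the mean and SD (n = 3). In both panels the Tributyrin mean is lower and the groups overlap.

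Levels were compared between genes as normalized counts per kilobase of the principal transcript. In the vehicle mice *Hibadh* and *Ivd* stood highest, at 3822 ± 85.1 (SD) and 3606 ± 328 (SD), and their ranges over the 6 mice overlapped. *Auh* and *Aldh6a1* followed at 1717 ± 59.4 (SD) and 1702 ± 124 (SD), again overlapping each other but below *Hibadh* and *Ivd* in every mouse. *Pccb* stood at 1424 ± 48.7 (SD) and *Hibch* at 1199 ± 52.6 (SD), each apart from its neighbours in this order. *Mccc1* at 997 ± 49.5 (SD), *Mut* at 960 ± 51.1 (SD), *Pcca* at 944 ± 48.5 (SD) and *Mccc2* at 888 ± 103 (SD) overlapped from one to the next. On this scale the 10 genes lay between percentiles 90.5 and 97.7 of the genes tested.

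The order between genes rested on the length chosen. Over the length of all annotated exons, a choice added after the data had been seen, *Hibadh* was at 685, *Auh* at 237 and *Mccc1* at 223 in the vehicle mice, whereas *Ivd* at 2401 and *Pccb* at 1192 led. *Mut* changed little, at 931. The percentiles then ran from 75.7 to 97.6. Which transcript of each gene was read in these hearts is not known from counts per gene. Other biotin carboxylases, on the principal transcript scale in the vehicle mice, were at 1288 ± 10.6 (SD) for *Acacb*, the acetyl-CoA carboxylase of the mitochondrial surface, 227 ± 12.8 (SD) for *Pcx*, pyruvate carboxylase, and 23.2 ± 1.51 (SD) for *Acaca*, the cytosolic acetyl-CoA carboxylase.

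**Figure D5:**
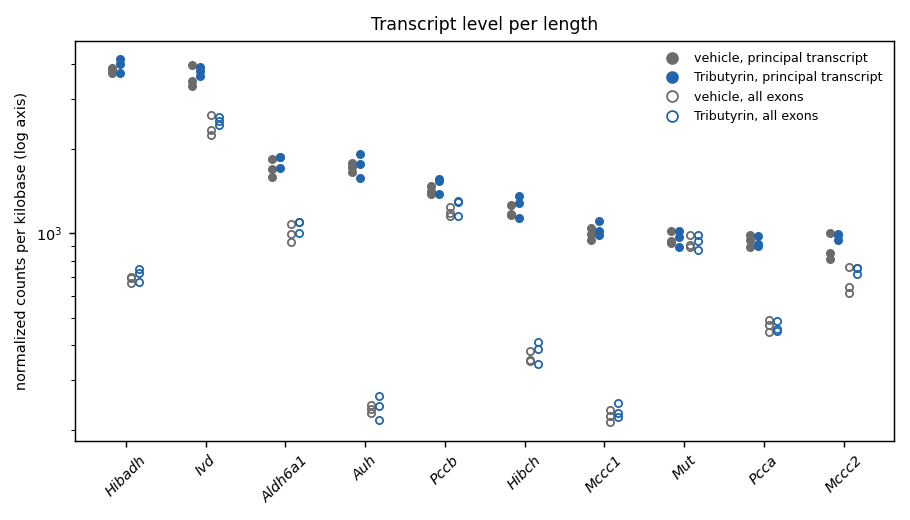
Normalized counts per kilobase (vertical log axis) of the 10 genes in the vehicle (grey) and Tributyrin (blue) mice, over the principal transcript (filled) and over all annotated exons (open), 1 point a mouse. The choice of length moves the mean of every gene by more than the group means differ. It moves *Hibadh*, *Auh*, *Hibch* and *Mccc1* most and *Mut* least.

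Promoters of 9 of the 10 genes were matched by symbol in RefSeq, over 250 bases before to 50 bases after the start. The symbol *Mut* had no entry, and the other symbol of that gene, *Mmut*, was not searched. The estrogen-related receptor element, TCA followed directly by AGGTCA, was in 0 of 9 and in 0.423% of all 32851 promoters. The NRF1 motif, GCGCA, any base and then GCGC, was in 2 of 9, *Hibadh* and *Pccb*, and in 4.60% of all promoters. CCAAT was in 6 of 9 against 37.4%, GGGCGG, the GC box, in 5 of 9 against 35.7%, and TATAAA in 0 of 9 against 13.6%, each searched on both strands. Matches of the same motif overlapped in *Mccc2* and *Hibch*. The GC content of the 9 promoters was 50.7% to 66.3% with a median of 60.3%, beside a median of 52.7% over all promoters.

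The neighbouring parts of the pathway were measured in the same fit. Of 6 other distal steps (*Acad8*, *Echs1*, *Acadsb*, *Hsd17b10*, *Acat1* and *Mcee*), 0 passed an FDR of 10% in either direction, against 0% of all genes tested. The highest fold change among these 6 was that of *Mcee*, the methylmalonyl-CoA epimerase between propionyl-CoA carboxylase and the mutase, at 1372 ± 50.5 (SD) normalized counts in vehicle and 1505 ± 155 (SD) in Tributyrin (log2 fold change 0.13, SE 0.09). The lowest among them was that of *Acad8*, isobutyryl-CoA dehydrogenase of the valine route, at 1234 ± 39.3 (SD) and 1264 ± 95.5 (SD) (log2 fold change 0.04, SE 0.08).

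Of 10 genes that supply biotin and cobalamin to these enzymes, 0 passed an FDR of 10% in either direction, against 0% of all genes tested. Of the 10, 7 had a fold change above 1 under TMM and 5 under library size alone. Under either scaling 7 lay above the median of all genes. Their median log2 fold change was 0.06 under TMM. The lowest was *Btd*, biotinidase, which frees biotin for reuse. It had 279, 333 and 280 normalized counts in the vehicle mice and 229, 269 and 257 in the Tributyrin mice, a log2 fold change of -0.24 (SE 0.12; edgeR unadjusted p = 0.0653, adjusted p = 0.999). *Hlcs*, holocarboxylase synthetase, which attaches biotin to the carboxylases and was named after its values were seen, had 299, 277 and 285 in the vehicle mice and 266, 265 and 225 in the Tributyrin mice, a log2 fold change of -0.18 (SE 0.11). In these 2 of the 10 genes the groups did not overlap, against 8.91% of all genes, and neither passed the test. The highest was *Mmaa*, which protects and loads the mutase cofactor, at 908 ± 65.3 (SD) in vehicle and 984 ± 105 (SD) in Tributyrin (log2 fold change 0.11, SE 0.09).

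Of 11 proximal genes, from amino acid transport to the keto acid dehydrogenase and its regulators, 0 passed an FDR of 10%, against 0% of all genes tested. Of the 11, 8 had a fold change above 1 under TMM and 5 under library size alone. Under either scaling 8 lay above the median of all genes. Their median log2 fold change was 0.07 under TMM. The highest was *Ppm1k*, the phosphatase that activates the dehydrogenase, at 3577 ± 236 (SD) normalized counts in vehicle and 4370 ± 195 (SD) in Tributyrin (log2 fold change 0.29, SE 0.07; edgeR unadjusted p = 0.00296, adjusted p = 0.999). It was the only one of the 11 with an unadjusted p under 0.05, beside 4.25% of all genes, and the only one whose groups did not overlap, beside 8.91% of all genes. The lowest was *Bcat1*, the cytosolic transaminase, at 43.4 ± 8.80 (SD) and 32.9 ± 18.0 (SD) (log2 fold change -0.43, SE 0.39). The 10 distal genes, downstream of that activation step, had estimates of -0.02 to 0.14 on the same log2 scale, and a difference between *Ppm1k* and the distal genes was not tested. The smallest adjusted p among the 11 proximal genes was 0.339 by DESeq2 and 0.116 by edgeR with no filter on low counts. The study itself, using DESeq2, reported *Ppm1k* as increased by Tributyrin at an FDR of 10%, with an adjusted p that was also under 5%. By immunoblot it also reported more PP2Cm, the protein that *Ppm1k* encodes, and a lower ratio of phosphorylated to total dehydrogenase. The counts used here do not measure protein.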

How the data were processed

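RNA of heart ventricle was sequenced by stranded mRNA-seq in 6 libraries, 1 a mouse. The values are whole-number counts of reads per gene, deposited by the authors without normalization. Per the study's methods, the authors trimmed adapters, removed poor and rRNA reads, used STAR as the aligner and htseq-count for the read counts per gene. The submitters' processing notes name cutadapt 1.13, HTSeq 0.6.1p1 and the build mm10, and the strand setting is not given in the sources used here. Of 54232 identifiers, 54165 matched GENCODE M21 (GRCm38), and 0 lines named no gene.

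Groups came from the sample titles. The 14133 genes passing filterByExpr (minimum count 10, minimum total 15) were fitted with the quasi-likelihood test of edgeR 4.0.16 (R 4.3.3), with TMM scaling, no covariate and Benjamini-Hochberg adjustment over all genes, at an FDR of 10% or 5%. Log2 fold changes are Tributyrin over vehicle, and 95% intervals come from that fit. Normalized counts are counts divided by DESeq2 size factors. DESeq2 1.42.0, limma-voom (limma 3.58.1), other scalings and filters, a replicate block and leaving out each library were the alternatives. Subunit ratios were compared by two-sided exact permutation tests. The fitting steps were tested on simulated data. All 10 members were named, and of each further list the highest and lowest fold change. One gene was taken out of the list of other distal steps and is not reported here, so no direction count or median is given for that shortened list. The members and lists were chosen with earlier results of these data known.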

Additional observations from a re-analysis of the deposited data

How the results depend on the processing

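In 14 alternatives 0 of the 10 genes passed an FDR of 10%, and of their 140 fold changes 124 kept their direction and 16 reversed, none of them past the threshold. Genes past an FDR of 10% numbered 0 by edgeR (600 at an unadjusted p under 0.05), 167 with no filter on low counts, 11 by DESeq2 and 2 with the replicate block, and 0 to 3 without one library. At 5% they numbered 140 with no filter and 5 by DESeq2, and 0 to 3 without one library. The counts without one library were 2 without vehicle replicate 1 or 3 or Tributyrin replicate 1 or 2, and 3 without Tributyrin replicate 3, at 10%. Under library size alone, which moved the median of all genes to -0.07, the members higher with Tributyrin numbered 2, the members' median log2 fold change was -0.00747, and the log2 fold changes were -0.00372 for *Ivd*, -0.0103 for *Mccc1*, -0.0475 for *Auh*, -0.00463 for *Hibch*, -0.0165 for *Hibadh*, -0.00404 for *Pccb* and -0.0669 for *Mut*. *Mut* was at -0.0154 under library size scaling with the mitochondrial genome genes left out and at -0.000744 with a mean CPM of at least 5. Without one library, *Auh* ranged from -0.0353 to 0.0978, *Pcca* from -0.0599 to 0.0201 and *Mut* from -0.0348 to 0.0550. The cause of these changes was not tested beyond the alternatives' own construction. The subunit ratios kept their direction, with differences of -0.120 to -0.0517 for *Pcca* to *Pccb* and -0.140 to -0.0362 for *Mccc1* to *Mccc2* without one library.

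The replicate numbers were taken as names. Same-numbered libraries correlated at 0.21, 0.04 and 0.01 in their deviations from the group means, and 4 of 6 correlated best with their own number. The replicate block moved the count of genes past 10% from 0 to 2, gave a median of 0.06 for the 10 genes, and changed no call among them. With 3 mice a group, the printed intervals set the precision under TMM scaling.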
